A study of Sus scrofa with 189 samples.

Results

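Pigs at the fat and lean ends of intramuscular fat content (IMF) were compared in their longissimus dorsi, a large fast muscle of the back. The animals are first-generation crosses of Duroc boars and Luchuan sows, all kept on the same feed on 1 farm. The labels name 8 boars as sires of the cross, so the animals share sires, and which animals do is not recorded. They were slaughtered at 210 days, give or take 6 days, and muscle was taken 25 minutes after death. Polyadenylated RNA was sequenced in paired 150-base reads. No other trait is recorded, and the labels state no unit for IMF. Sex is not recorded, and no animal carries a treatment or an engineered allele.

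Of 189 libraries, 44 were compared. They are those whose title lacks the mark "re-analyzed" and whose IMF is at least 4.20 (high, 21 animals) or at most 2.50 (low, 23 animals). Mean IMF was 4.74 ± 0.339 (SD, n = 21) in the high group and 2.10 ± 0.353 (SD, n = 23) in the low group, a difference of 2.64. The limits cut a continuous trait: the leanest high animal had 4.20 against 4.17 in the fattest animal below that limit, and the fattest low animal had 2.50 against 2.52 in the next. The 98 unmarked animals between the limits (IMF 3.34 ± 0.468) served as other animals in which the same genes could be followed. The 21 marked animals, 10 of high and 11 of low IMF, served as a second set, and what the mark means is not explained in the labels. One unmarked library, number 39, was left out. Numbers such as 39 are the sample numbers given in the labels.

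Intramuscular fat lies in fat cells between the muscle fibres, and muscle RNA therefore carries a small share of fat cell RNA. Fat cells secrete the hormones leptin (LEP) and adiponectin (ADIPOQ), and they store triglyceride in droplets coated with perilipin (PLIN1). CEBPA and PPARG are the transcription factors that drive and maintain the fat cell state. In such bulk samples, more fat cells and more RNA of a gene per fat cell cannot be told apart.

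Composition varied between the 44 libraries, and 5 library measures were compared between the groups. Expression is given as FPKM, fragment counts scaled by transcript length and by library size, summed over the transcripts of a gene. Between 7986 and 9804 genes reached 1 FPKM in the low animals and between 8397 and 9569 in the high animals. Fast fibre genes summed to between 41200 and 76400 FPKM in the 44 animals, so the labelled muscle was present in each. Mitochondrially encoded genes held 7.19% ± 1.92 (SD, n = 21) of the summed FPKM in the high group and 6.15% ± 2.05 (SD, n = 23) in the low group (2-sided permutation test, p = 0.0909, 0.341 after adjustment over 5 library measures). None of those 5 measures passed at an adjusted p under 0.05.

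No gene was called in the comparison of high with low IMF. Of 10717 genes tested with limma, 0 were higher (0.00%) and 0 were lower (0.00%) in high animals at an adjusted p under 0.05. At an unadjusted p under 0.05, 372 genes stood out (3.47%), which is less than the share of 0.05 that the threshold itself allows. They were unevenly divided, 268 higher (2.50%) and 104 lower (0.970%), but this division depended on the scaling. After quantile normalization it was 181 higher and 229 lower, and after a shift of each library to a common median 192 and 217. Over all genes tested, the median difference was 0.03 on the log2(FPKM + 1) scale and the median 95% interval reached 0.22 to either side. That interval is not adjusted for the number of genes, so the median gene needed a larger difference than that to be called. The scale understates the change of genes below a few FPKM.

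The genes with the smallest p-values are described below as values that did not pass. Of 20 such genes with a symbol, 19 were higher in the high group, against 61.0% of all genes tested. These 20 were chosen by this contrast, so that count is a description. What follows for each gene includes the 98 animals between the limits, which the choice did not use.

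LEP, the satiety hormone of fat cells (chromosome 18, 20106179 to 20123451 in Sscrofa11.1, minus strand), was low in every animal. It ranged from 0.0540 to 1.09 FPKM in the low group (median 0.236) and from 0.0197 to 1.89 FPKM in the high group (median 0.614). The groups overlapped widely: 18 of 21 high animals lay above the low median and 3 above the highest low animal. Mean LEP was 0.313 ± 0.239 FPKM (SD, n = 23) in low, 0.575 ± 0.396 (SD, n = 98) in middle and 0.681 ± 0.449 (SD, n = 21) in high animals. The high minus low difference was 0.33 on the log2(FPKM + 1) scale (SE 0.0913, 95% interval 0.15 to 0.51, limma adjusted p = 0.874). With a pseudocount of 0.1 in place of 1, it was 0.83.

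Among the 98 middle animals, LEP was the single gene of 10717 that was called for a slope on IMF (0.00933% called higher, 0.00% lower). It rose by 0.33 per unit of IMF (SE 0.0643, 95% interval 0.20 to 0.46, limma adjusted p = 0.0155). The call was lost without middle library 57 (slope 0.30, limma adjusted p = 0.0743) and when library 39 was put back (slope 0.28, limma adjusted p = 1.00). Leaving out any other 1 of the 98 middle libraries kept it. Library 39 had been left out with its values known. In the 44 animals the slope of LEP on IMF was lower than in the middle animals (difference -0.20, 95% interval -0.35 to -0.06, limma unadjusted p = 0.00614). After adjustment over all genes this difference did not pass (limma adjusted p = 0.800).

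SDR16C5, a retinol dehydrogenase (chromosome 4, 75586235 to 75599786, plus strand), ranged from 0.129 to 1.28 FPKM in the low group (median 0.482) and from 0.153 to 6.09 FPKM in the high group (median 1.16). Of the 21 high animals, 10 exceeded every low animal, while the lowest high animal lay near the lowest low one. Its mean was 0.575 ± 0.363 (SD, n = 23) in low, 1.13 ± 0.915 (SD, n = 98) in middle and 1.5 ± 1.40 (SD, n = 21) in high animals. The difference of 0.53 on the log2(FPKM + 1) scale (SE 0.155, 95% interval 0.22 to 0.84) did not pass (limma adjusted p = 0.874). In middle animals the slope was 0.35 per unit of IMF (SE 0.108, limma adjusted p = 0.992).

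PON3, a paraoxonase that hydrolyses lactones (chromosome 9, 74990230 to 75017949, minus strand), ranged from 0.118 to 1.36 FPKM in the low group (median 0.421) and from 0.344 to 3.47 FPKM in the high group (median 1.03). Above the low median lay 18 of 21 high animals, and 5 lay above the highest low animal. The difference was 0.42 on the log2(FPKM + 1) scale (SE 0.103, 95% interval 0.21 to 0.62, limma adjusted p = 0.679), and the slope in middle animals was 0.17 per unit (SE 0.0759, limma adjusted p = 0.992). For these 3 genes the low values of the scale matter: with a pseudocount of 0.1 the differences were 0.95 for SDR16C5 and 0.87 for PON3.

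**Figure D1:**
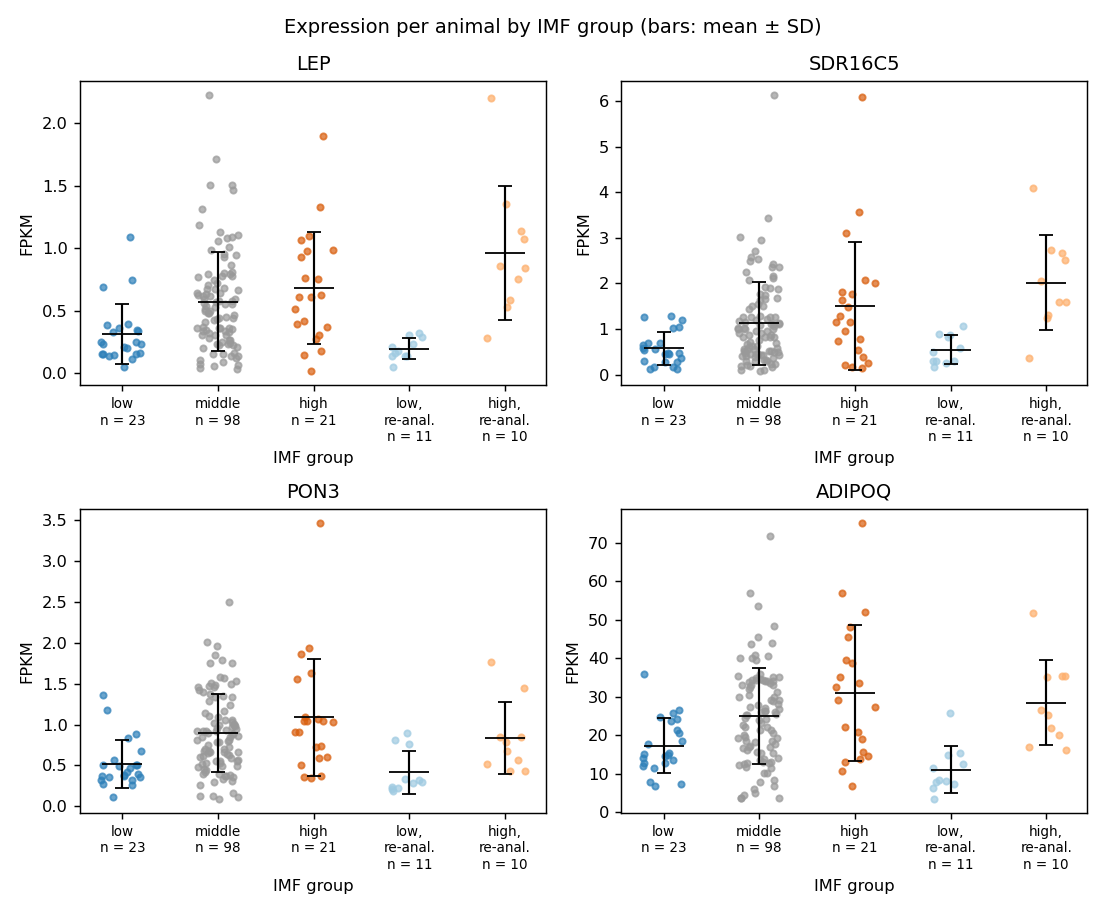
FPKM per animal of LEP, SDR16C5, PON3 and ADIPOQ by IMF group, for unmarked libraries (low, middle, high) and re-analyzed libraries (low, high). Points are animals and bars are mean ± SD. The means of all 4 genes increase from low over middle to high, and the points of the groups overlap.

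NUDT6, a Nudix hydrolase (chromosome 8, 101241582 to 101284334, plus strand), had the smallest p of all genes. It ranged from 0.168 to 2.33 FPKM in the low group (median 0.970) and from 0.766 to 2.14 FPKM in the high group (median 1.69). Although 19 of 21 high animals lay above the low median, none exceeded the highest low animal. The difference was 0.40 (SE 0.0807, limma adjusted p = 0.118). Leaving out high library 37, low library 109 or low library 191 brought NUDT6 past the threshold (limma adjusted p = 0.0292, 0.0435 and 0.00481). Neither other set of animals showed a like value: the slope among the 98 middle animals was -0.05 per unit (SE 0.0692, unadjusted p = 0.5) and the re-analyzed difference was 0.04 (unadjusted p = 0.770). NUDT6 overlaps FGF2 on the other strand, and no strand setting is given in the sources used here, so reads of the 2 genes may not be separable.

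**Figure D2:**
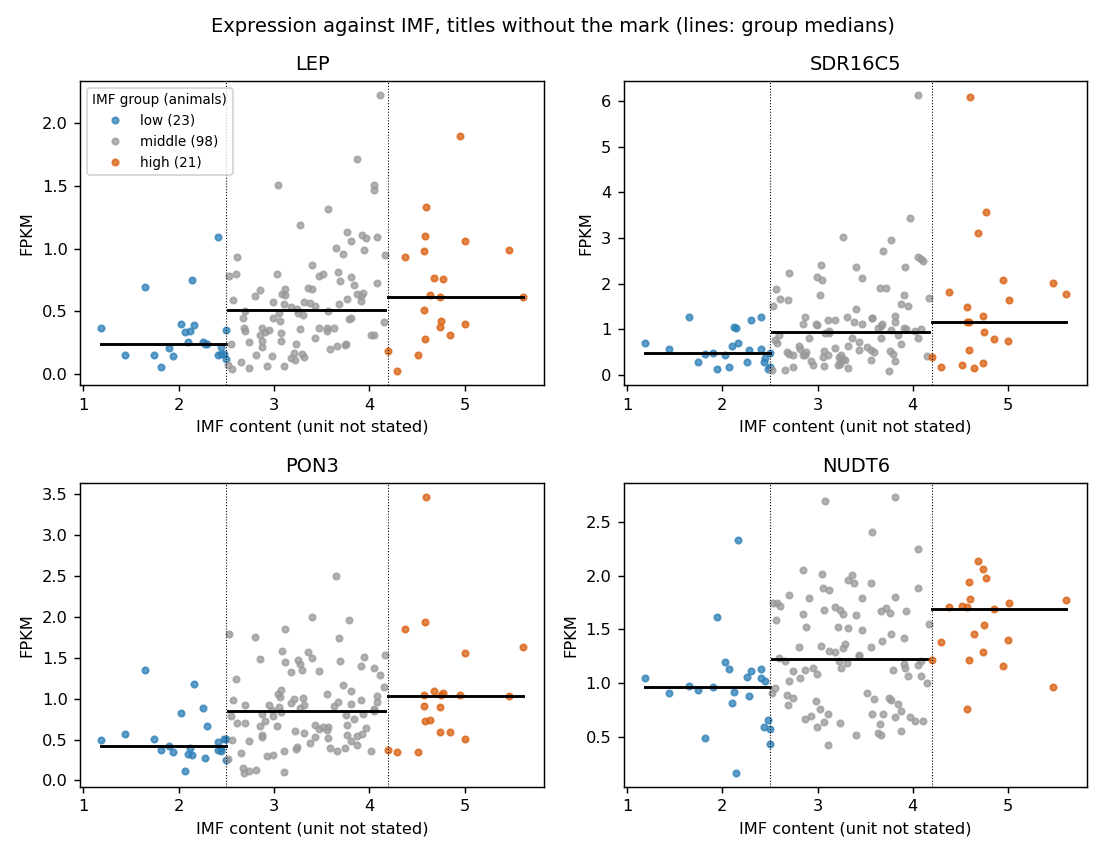
FPKM of LEP, SDR16C5, PON3 and NUDT6 against IMF (unit not stated) in 142 unmarked animals. Dotted lines mark the limits at 2.5 and 4.2 and horizontal lines the group medians. LEP, SDR16C5 and PON3 spread upwards within the middle animals, whereas NUDT6 has a slope of -0.05 there.

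The fat cell genes ADIPOQ and CEBPA were among the 20. ADIPOQ (chromosome 13) ranged from 6.89 to 36.0 FPKM in the low group (median 15.2) and from 6.77 to 75.3 FPKM in the high group (median 29.2). Both groups began at the same level, and 7 of 21 high animals exceeded every low one. Its difference was 0.69 (SE 0.211, 95% interval 0.27 to 1.11, limma adjusted p = 0.874) and its slope in middle animals 0.47 per unit (SE 0.171, limma adjusted p = 0.992). CEBPA (chromosome 6) ranged from 0.852 to 8.66 FPKM in the low group (median 2.81) and from 1.64 to 13.5 FPKM in the high group (median 5.46). Its difference was 0.66 (SE 0.197, limma adjusted p = 0.874) and its slope in middle animals 0.36 per unit (SE 0.145), with 4 high animals above every low one.

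CYP4V2, a fatty acid omega-hydroxylase (chromosome 15), averaged 1.00 ± 0.356 FPKM (SD, n = 23) in low, 1.33 ± 0.531 (SD, n = 98) in middle and 1.58 ± 0.623 (SD, n = 21) in high animals. Its difference was 0.34 (SE 0.0899, limma adjusted p = 0.874) and its slope in middle animals 0.21 per unit (SE 0.0710). With the limits moved to 4.0 and 2.8, which gave 30 high and 38 low animals, CYP4V2 became the 1 called gene (limma adjusted p = 0.0373). IMF as a number over all 142 unmarked animals called 5 genes, all higher with IMF: LEP, SDR16C5, CYP4V2, PON3 and SNCG, a synuclein, with limma adjusted p-values from 0.00120 to 0.0483. That fit holds the 44 and the 98 animals together and is not independent of either; with library 39 added, it called 0.

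Other metabolic genes of the 20 were HACD2, an enzyme of very long chain fatty acid elongation, PEX11A, a factor of peroxisome division, and PTGR1, a prostaglandin reductase. HACD2 averaged 1.75 ± 0.691 FPKM (SD, n = 23) in low and 2.57 ± 1.04 (SD, n = 21) in high animals, a difference of 0.36 (SE 0.116). PEX11A averaged 1.69 ± 0.647 and 2.36 ± 0.805 FPKM, a difference of 0.32 (SE 0.102). PTGR1 averaged 0.810 ± 0.613 and 1.57 ± 0.997 FPKM, a difference of 0.48 (SE 0.153). All 3 had overlapping groups and limma adjusted p = 0.874, and their slopes in middle animals were 0.05, 0.06 and 0.14 per unit. PEX11A lies beside PLIN1 on chromosome 7 and overlaps WDR93 on the other strand. MAL2, a membrane trafficking protein, and SAL1, a lipocalin, averaged 0.521 and 0.269 FPKM in low against 0.932 and 0.711 FPKM in high animals. The MAL2 slope in middle animals was 0.21 per unit, whereas that of SAL1 was -0.11.

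The 20 also held genes outside lipid metabolism. SCN4B, a beta subunit of voltage-gated sodium channels, ranged from 2.32 to 48.5 FPKM in low (median 18.3) and from 13.4 to 60.7 FPKM in high animals (median 31.1), with a difference of 0.80 (SE 0.242, limma adjusted p = 0.874). No high animal had as little SCN4B as the lowest low animals, but only 5 exceeded the highest of them. In middle animals its slope was 0.09 per unit, and -0.05 without library 3. SEC24A, a coat protein of vesicles leaving the endoplasmic reticulum, averaged 0.787 ± 0.720 FPKM (SD, n = 23) in low and 1.86 ± 1.41 (SD, n = 21) in high animals. C5orf24, also on chromosome 2 (137037929 to 137049441, against 136883875 to 136952178 for SEC24A), averaged 3.63 ± 2.88 and 6.30 ± 3.15 FPKM. Their differences were 0.61 and 0.69, and their slopes in middle animals 0.07 and -0.07.

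Single transcripts carried the values of SEC24A and CDK2. The SEC24A transcript ENSSSCT00000048923 averaged 0.458 FPKM in low and 1.49 FPKM in high animals, while ENSSSCT00000062247 averaged 0.329 and 0.373 FPKM. For CDK2, the cyclin-dependent kinase of the G1 to S transition, ENSSSCT00000053267 averaged 0.350 and 0.683 FPKM and ENSSSCT00000000398 averaged 0.191 and 0.111 FPKM. Values of overlapping transcripts are estimates that share reads, and CDK2 also overlaps RAB5B on the same strand. The gene CDK2 had a difference of 0.22 (SE 0.0611, limma adjusted p = 0.874) and a slope in middle animals of 0.03.

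CDC42SE1, a small effector of CDC42, was the 1 lower gene of the 20. It ranged from 0.416 to 2.57 FPKM in low (median 1.03) and from 0.151 to 1.82 FPKM in high animals (median 0.626), and 4 of 21 high animals lay above the low median. Its difference was -0.34 (SE 0.105, limma adjusted p = 0.874), but its slope in middle animals was 0.05 and the re-analyzed difference 0.21. It overlaps MLLT11 on the other strand. The remaining 3 were CFAP126, a cilium protein, CLCA2, a regulator of chloride conductance, and a small nucleolar RNA with the shared symbol SNORD88. Their high minus low differences were 0.29, 0.31 and 0.35, and their slopes in middle animals 0.05, 0.14 and 0.04 per unit. A small nucleolar RNA of 91 bases is shorter than the reads and carries no poly(A) tail, so its FPKM is uncertain.

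**Figure D3:**
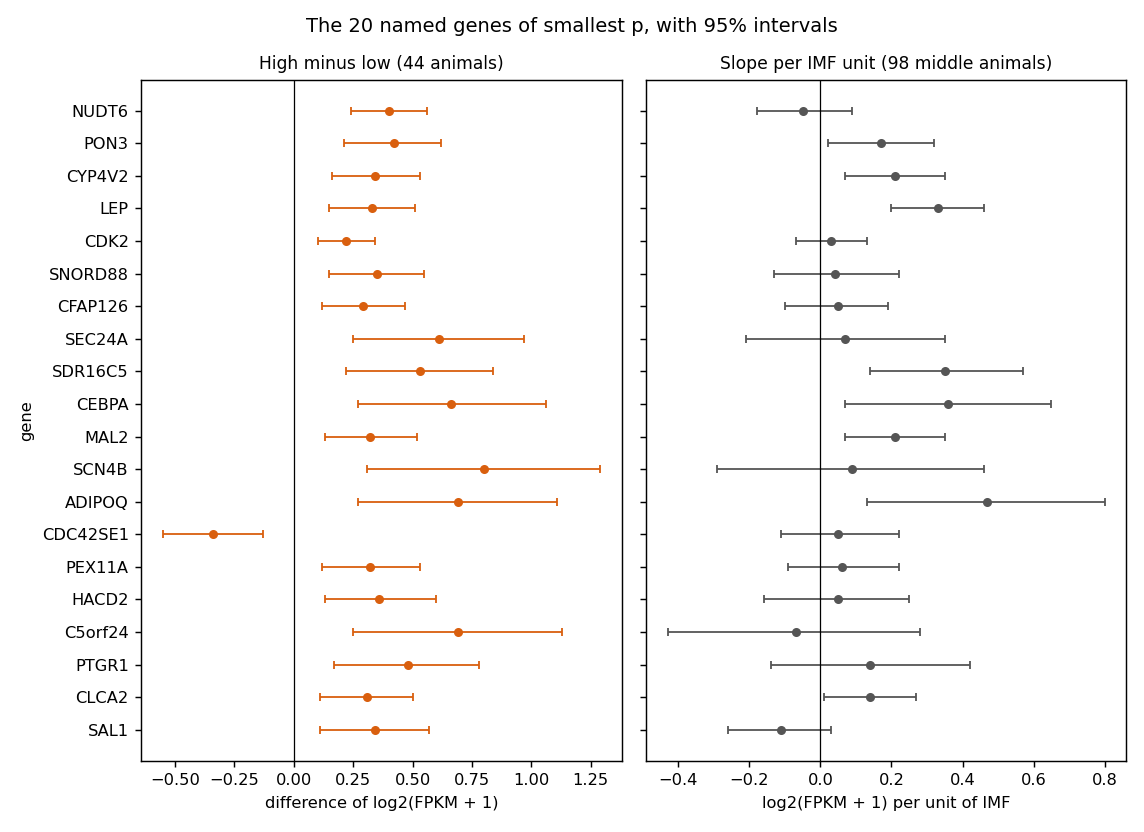
The 20 genes with a symbol and the smallest p, as high minus low differences over 44 animals (left) and slopes per IMF unit over 98 middle animals (right), on the log2(FPKM + 1) scale with 95% intervals. On the left the genes were chosen by these values; on the right, 8 genes have an interval above 0.

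In the middle animals 17 of the 20 genes had a slope above 0, against 56.3% of all genes tested, and 8 had an unadjusted p under 0.05, against 3.27% of all genes tested for the same sign and p. The 8 were LEP, SDR16C5, CYP4V2, MAL2, ADIPOQ, CEBPA, PON3 and CLCA2. Over the wider set of 268 genes higher at an unadjusted p under 0.05, 133 (49.6%) had a slope above 0 in middle animals and 24 (8.96%) also had an unadjusted p under 0.05. Of the 104 lower genes 37 (35.6%) had a slope below 0, against 43.7% of all genes. Of these, 1 (0.962% of the 104) also had an unadjusted p under 0.05, against 0.569% of all genes for the same sign and p. The 2 fits share no animal, but library 39 was left out of the middle fit with its values known. With it put back, 184 genes in place of 350 had a slope above 0 at an unadjusted limma p under 0.05, and none was called. The counts for the 20 genes are given without library 39 only. The share of higher genes that sloped the same way in middle animals was thus below that of all genes, while the share with an unadjusted p under 0.05 was above it.

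Library 39, whose IMF of 3.05 lies between the limits, had levels of many fat cell genes above those of every middle animal. It held 605 FPKM of ADIPOQ, 1680 of FABP4, 426 of PLIN1, 18.0 of LEP, 39.8 of SDR16C5 and 18.8 of PON3. It is in neither group, and it was left out with these fat cell values known, so they are given as a description. In 11 of the 20 it exceeded every middle animal and was at least 5 times their median: SDR16C5 at 42.4 times, LEP 35.4, ADIPOQ 24.0, PON3 22.3, PTGR1 19.9, MAL2 19.0, CEBPA 15.9, CYP4V2 15.0, HACD2 14.1, PEX11A 13.6 and SAL1 6.13. Of these 11, 7 had a middle slope above 0 at an unadjusted p under 0.05. The other 9 genes lay between 0.197 times (CDC42SE1) and 2.53 times (NUDT6) the middle median, and 1 of them had such a slope. This split at 5 times was chosen after the values were seen and carries no test, and library 39 is 1 animal, from which nothing about the groups is drawn.

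Fat cell markers were taken as a list of 14 measured genes. In high against low animals 12 lay above 0, against 61.0% of all genes tested. Of these 12, 7 had an unadjusted p under 0.05, against 2.50% of all genes higher at that p, and none was called. The median difference was 0.32 against 0.03 over all genes. The summed FPKM of the list overlapped nearly fully, from 174 to 492 in low (median 340) and from 205 to 644 in high animals (median 369). PLIN1, the lipid droplet coat protein, averaged 18.9 ± 7.78 FPKM (SD, n = 23) in low and 29.7 ± 15.4 (SD, n = 21) in high animals, a difference of 0.56 (SE 0.189, limma adjusted p = 0.874). TUSC5, which takes part in insulin-driven glucose transport in fat cells, averaged 5.73 ± 3.21 and 9.47 ± 5.82 FPKM, a difference of 0.58 (SE 0.219). PPARG averaged 0.964 ± 0.431 and 1.41 ± 0.837 FPKM, a difference of 0.25 (SE 0.124), and ADIG, adipogenin, 1.07 ± 0.848 and 1.67 ± 1.21 FPKM, a difference of 0.34 (SE 0.169). None of these 4 passed.

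Other members of the list had differences of either sign. CIDEC, a lipid droplet protein, had one of 0.47 (limma unadjusted p = 0.0829, adjusted p = 0.874). FABP4, the fatty acid binding protein of fat cells, averaged 58.7 ± 18.4 FPKM (SD, n = 23) in low and 77.1 ± 39.6 (SD, n = 21) in high animals, a difference of 0.29 (SE 0.183). CFD, the complement protease adipsin and the most abundant of the list, was below 0, with 120.0 ± 47.6 FPKM in low and 102 ± 38.4 FPKM in high animals and a difference of -0.21 (SE 0.181, limma adjusted p = 0.874). LIPE, hormone-sensitive lipase, averaged 18.8 ± 13.2 and 18.0 ± 8.66 FPKM (difference 0.06, SE 0.237). The other member below 0 was the amino acid transporter SLC7A10 at -0.01 (SE 0.0727). The signs of CFD, LIPE and SLC7A10 changed under other settings. In middle animals all 14 slopes lay above 0, LIPE at 0.47 and CFD at 0.25 per unit included, against 56.3% of all genes tested. Their median was 0.33 per unit, and 1 was called, LEP. Library 39 was left out of the middle fit with its fat cell values known. With it put back, the slope of PLIN1 was 0.53 in place of 0.59 and that of ADIPOQ 0.40 in place of 0.47. The slope of FABP4 was then 0.27 in place of 0.34, and LEP was not called. List counts and medians in middle animals are given without library 39 only.

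High library 53 (IMF 4.60) had the highest level of its group in 6 of the list's genes. It held 75.3 FPKM of ADIPOQ, 6.09 of SDR16C5 and 3.47 of PON3. Without it the differences were 0.30 for LEP, 0.44 for SDR16C5, 0.36 for PON3, 0.62 for ADIPOQ and 0.21 for FABP4. Library 53 shares the first 9 digits of its title, a code whose meaning is not given, with low library 54 (IMF 1.90), which held 14.8 FPKM of ADIPOQ, 0.482 of SDR16C5, 0.421 of PON3 and 0.206 of LEP, against 1.33 of LEP in library 53. The other code found in both groups joins high library 108 (IMF 4.85) and low library 109 (IMF 1.94). LEP was 0.310 against 0.139 FPKM and SDR16C5 0.780 against 0.134 FPKM there, in the same direction but at low level in both.

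Of 21 measured genes that build fatty acids and triglycerides, none was called. Above 0 lay 18, against 61.0% of all genes tested, with a median difference of 0.15 against 0.03, and 2 were higher at an unadjusted p under 0.05, against 2.50% of all genes. These were the elongases ELOVL6, at 1.99 ± 1.66 FPKM (SD, n = 23) in low and 3.55 ± 3.29 (SD, n = 21) in high animals (difference 0.53, SE 0.209), and ELOVL5, at 4.62 ± 1.86 and 6.35 ± 3.01 FPKM (difference 0.34, SE 0.148). SCD, the desaturase that makes oleic acid, had the widest spread, from 0.455 to 96.7 FPKM in low animals and from 1.19 to 74.7 FPKM in high ones, and its difference of 0.73 (SE 0.462) did not pass. In middle animals 18 of the 21 slopes lay above 0, against 56.3% of all genes tested, with a median of 0.08 per unit. PNPLA3, a lipase of lipid droplets, and ME1, malic enzyme, which supplies NADPH, had slopes of 0.21 (SE 0.0582) and 0.25 (SE 0.0760), and their high minus low differences were 0.15 and 0.18. Neither was called in either fit.

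Of 17 measured retinoid genes, SDR16C5 included, 13 lay above 0, with a median of 0.13, and 3 had an unadjusted p under 0.05, SDR16C5 among them. The same shares over all genes, 61.0% above 0 and 2.50% higher at that p, stand beside each list here. RETSAT, retinol saturase, averaged 12.5 ± 3.27 FPKM (SD, n = 23) in low and 16.3 ± 7.08 (SD, n = 21) in high animals (difference 0.30, SE 0.133), and its slope in middle animals was 0.31 (SE 0.0938). ALDH1A1, which makes retinoic acid, had a difference of 0.25 (SE 0.114). Genes of lipid breakdown and droplets were evenly split, 6 of 12 above 0 with a median of 0.01, and the 1 member at an unadjusted p under 0.05 was LPL, lipoprotein lipase, at 0.37 (SE 0.148). Of 19 genes of fatty acid uptake and oxidation 14 lay above 0 with a median of 0.07, and the fatty acid transporter SLC27A1 had a difference of 0.21 (SE 0.0947).

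Genes of the muscle fibre gave list medians of either sign, beside 61.0% of all genes above 0 and a median over all genes of 0.03. Of 13 fast fibre genes 5 lay above 0 (median -0.02), of 11 slow fibre genes 3 (median -0.10), of 18 genes of glycolysis and glycogen 5 (median -0.07) and of 24 nuclear genes of oxidative phosphorylation 13 (median 0.02). None of these members was called. The 13 mitochondrially encoded genes all lay above 0, with a median of 0.29 and ND1, a complex I subunit, at an unadjusted p under 0.05 (475 ± 144 FPKM in low, 546 ± 104 in high). They are processed from common transcripts and are not independent of each other. In middle animals 2 of the 13 slopes were above 0, against 56.3% of all genes tested, with a median of -0.13 per unit.

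Markers of other cells were counted in the same way. Of 22 collagen and fibroblast genes 6 lay above 0 in high against low animals (median -0.08), and of 11 macrophage and lymphocyte genes 1 (median -0.15). In middle animals the same lists had 21 and 9 slopes above 0, each with a median of 0.12, beside 56.3% of all genes. Interferon response genes had 4 of 12 above 0 (median -0.07) in the extremes and 12 of 12 (median 0.26 per unit) in middle animals. No member of these lists was called in either fit, and whether the 2 fits differ for a list was not tested.

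Titles that begin with 15 or 16 divide both groups, into 12 and 9 high and 10 and 13 low animals. For genes of the 20, LEP had differences of 0.39 and 0.27, SDR16C5 0.67 and 0.34, PON3 0.47 and 0.37, ADIPOQ 0.88 and 0.52, and NUDT6 0.43 and 0.38. These genes were chosen by small p in the same 44 animals, so a like sign in both parts is largely set by that choice. Immediate early genes, which respond within minutes to stress and handling, were not chosen by p and had medians of either sign. Over all 44 animals 1 of the 13 measured lay above 0 (median -0.23), against 61.0% of all genes tested. In titles beginning with 15, 11 lay above 0 (median 0.17), and in titles beginning with 16, 1 did (median -0.48). Slow fibre genes had 8 of 11 and 2 of 11 above 0, and interferon response genes 0 of 12 and 10 of 12. All genes tested also divided differently. Of those at an unadjusted limma p under 0.05, 81.3% were higher in titles beginning with 15 and 45.2% in titles beginning with 16. The median difference over all genes was 0.05 and 0.02. The share of all genes above 0 within each part is not given here, so the list counts per part stand without it. Whether the lists depart from all genes in this was not tested. What these digits stand for is not stated in the labels.

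**Figure D4:**
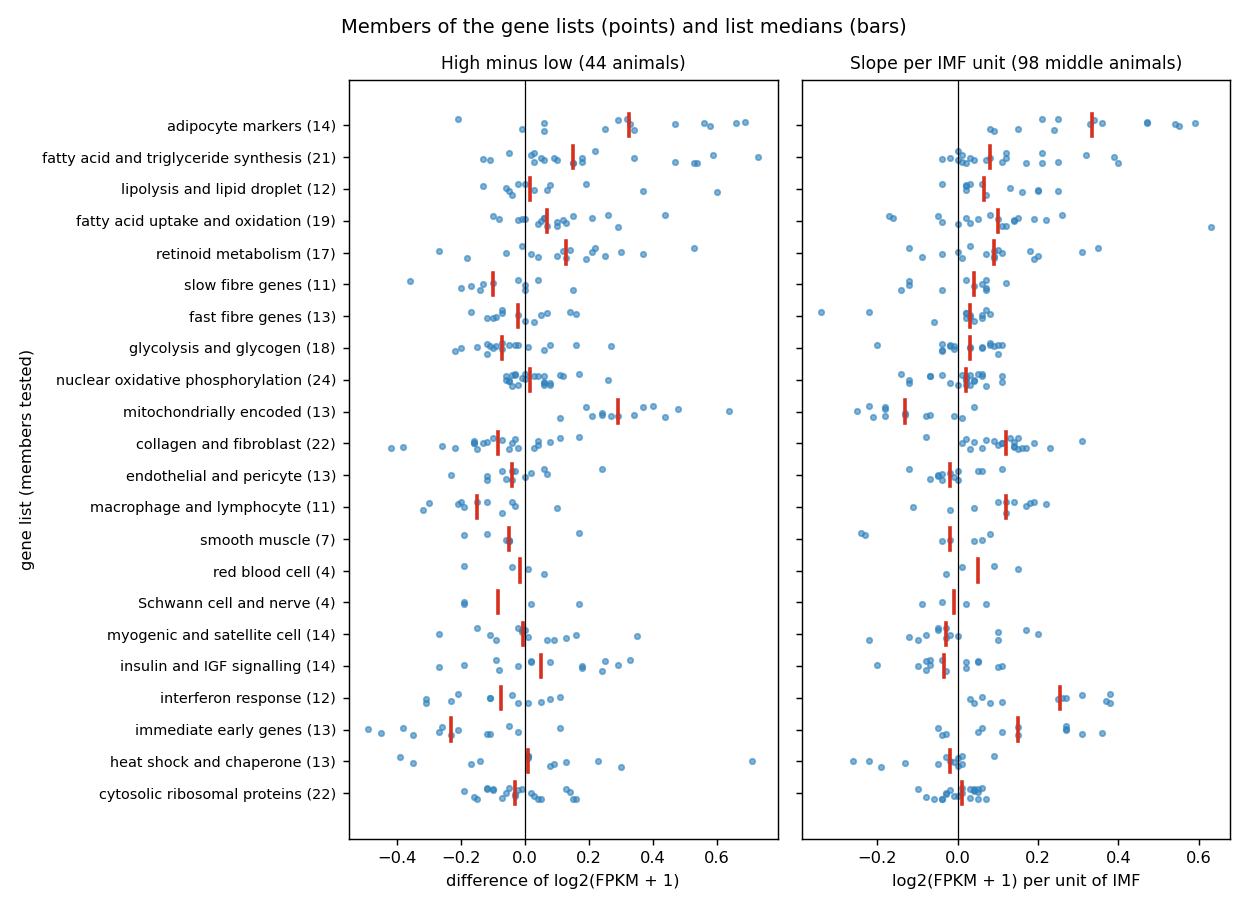
Members (points) and medians (bars) of 22 gene lists, as high minus low differences over 44 animals (left) and as slopes per IMF unit over 98 middle animals (right), on the log2(FPKM + 1) scale. Fat cell markers have medians of 0.32 and 0.33; mitochondrially encoded genes have medians of 0.29 and -0.13.

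The re-analyzed animals span a wider range of IMF, with group means that differ by 4.34 against 2.64 here. In them 9 genes were higher (0.0840%) and 0 lower (0.00%) at a limma adjusted p under 0.05. LEP averaged 0.198 ± 0.0844 FPKM (SD, n = 11) in low and 0.961 ± 0.536 (SD, n = 10) in high animals, a difference of 0.67 (limma adjusted p = 0.0214). SDR16C5 had a difference of 0.91 (limma adjusted p = 0.0372) and ADIPOQ one of 1.36 (limma adjusted p = 0.0311). PON3 was not called there (difference 0.36, limma adjusted p = 0.772). Nor were CYP4V2 (0.45) and CEBPA (0.77), each at a limma adjusted p of 0.435. The difference between the 2 sets was itself tested for each gene, and 0 of 10717 passed in either direction (0.00% each, 259 at an unadjusted p under 0.05, 2.42%). For LEP it was 0.34 (limma unadjusted p = 0.0305, adjusted p = 1.00). Of the 19 genes higher in the unmarked set, 17 were also above 0 in the re-analyzed set, against 7827 of the 10717 genes tested.

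The middle animals were also compared with each end. Middle minus low and high minus middle each gave 0 calls (0.00% in either direction; 399 and 205 genes at an unadjusted p under 0.05, or 3.72% and 1.91%). LEP was 0.24 higher in middle than in low animals (SE 0.0751, limma adjusted p = 0.890) and 0.09 higher in high than in middle animals (SE 0.0779, limma adjusted p = 0.999). ADIPOQ gave 0.42 and 0.27. In the order low, middle, high, no difference between neighbouring levels of these 2 genes passed.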

How the data were processed

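The deposited table gives 1 value per transcript and library (18114 transcripts of 12651 genes, 189 libraries). No unit stands in the header. Values were read as FPKM as the authors' StringTie would write them, an inference from the deposited layout and from library sums that vary little. HISAT2 2.0.5, StringTie 1.3.3 and the build Sscrofa11.1 are named in the submitters' processing notes. Depth is unknown and no counting error can be given. Transcripts were summed per gene, and 10717 genes averaging 0.5 FPKM or more over all libraries were tested on log2(FPKM + 1) with limma 3.58.1 in R 4.3.3 (eBayes with a mean trend, 2-sided, Benjamini-Hochberg). Separate fits used the 44 animals, the 98 middle animals (IMF as a number) and the re-analyzed animals. An interaction of IMF group with the mark was fitted over the 44 and the re-analyzed animals. A fit of the low, middle and high groups gave the steps between neighbouring groups. Another compared the slope on IMF in the 44 with that in the middle animals. Library measures were compared by permutation (100000 resamples, scipy 1.17.1). The script was tested on simulated data. Animals were treated as independent although the cross had 8 boars, and their p-values measure the spread between animals.

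The members and gene lists were chosen with earlier results of these data known, and so was the rule that leaves library 39 out. Genes named are those called or, as none was, the 20 of smallest p that have a symbol. LEP, SDR16C5 and PON3 were always named, and so were up to 4 of smallest p from lists of interest. CFD, LIPE, SLC7A10, CIDEC and SCD were singled out after their values were seen. Of the genes, 956 have no symbol, and 5 of these had p-values that ranked before the last of the 20. Lists not described individually in the report had medians between -0.08 and 0.05 in high minus low and no called gene.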

Additional observations from a re-analysis of the deposited data

Results flagged for a closer look

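One animal of the re-analyzed high group, library 148, lay apart from the other 9 in 4 of 29 genes examined in that group, by a gap that is large against the range of the group. It held 142 FPKM of FABP4, 16.1 FPKM of TUSC5, 4.27 FPKM of ADIG and 1.76 FPKM of MAL2. Chance flags about 1 in 20 such groups if values follow a normal distribution, which was not tested for these FPKM. All 4 flags come from 1 animal and the genes may vary together, so 4 of 29 cannot be set against that rate. The high and low groups compared in the report are too large for this rule.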

How the results depend on the processing

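The count of genes higher in high animals was 0, but 1 with limits of 4.0 and 2.8, 5 with IMF as a number over 142 animals, and between 0 and 1 when 1 of the 44 libraries was left out. Genes lower stayed at 0 in all of these. The 1 gene called in middle animals was lost with a mean minimum of 5 FPKM (0 genes; LEP not tested) and with library 39 added (0 genes), and leaving out single middle libraries gave between 0 and 1. Each of the 20 genes kept its sign of the high minus low difference under every alternative in which it was tested. As the 20 were chosen by small p in these same animals, a kept sign is largely set by that choice. Signs changed for LIPE (-0.04 with the most abundant transcript alone, -0.01 in titles beginning with 16, between -0.01 and 0.14 with 1 library left out), for CFD (0.02 with limits of 4.0 and 2.8), and for SLC7A10 (0.01 with limits of 4.5 and 2.2, 0.03 with 4.0 and 2.8, 0.02 with IMF as a number, 0.01 with library 39 added to that fit, between -0.04 and 0.00 with 1 library left out). The middle slope of SCN4B was -0.05 without library 3. The cause of these changes was not tested. The share of higher genes among those at an unadjusted p under 0.05 was 72.0%, against 44.1% after quantile normalization, 46.9% after the median shift and 45.2% in titles beginning with 16. The labels give no replicate numbers. With animals of one title code treated as a random block, 0 genes were called in the 44 animals (smallest limma adjusted p = 0.225) and LEP stayed called in middle animals (limma adjusted p = 0.0203). The unknown depth limits genes below 1 FPKM most, LEP among them.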
